A study of Mus musculus with 4 samples.

Results

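The genes described here encode proteins that neutrophils store in secondary (specific) and tertiary (gelatinase) granules. The 10 members are Ltf, Ngp, Camp, Lcn2, Mmp8, Mmp9, Cd177, Chil3, Hp and Pglyrp1. They were taken by mouse symbol from the 45232 gene identifiers in each count file, and each symbol matched 1 identifier. All 10 passed the filter on low counts, so all 10 were among the 15591 genes tested.

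RNA was sequenced from leukemic granulocyte-macrophage progenitors (L-GMPs) of mouse leukemia driven by MLL-AF9, a fusion oncoprotein of acute myeloid leukemia. The first group, labelled miR-99 KD, held cells from 2 mice, and the second, labelled Scr, held cells from 2 mice. The labels spell out neither KD nor Scr. Donor mice of both groups were secondary recipients of the leukemia, and all cells were sorted at death as positive for both GFP and tdTom, for CD34 and CD16/32, and for c-Kit and Sca-1. The sources used here give neither the age, strain and sex of the mice nor the construct behind each label. Nor do the labels say whether the 4 recipients carried cells of 1 primary leukemia, so p-values measure only the spread between these libraries.

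Neutrophil granules form in sequence as a progenitor matures. Primary granules fill first, at the promyelocyte stage, with enzymes such as myeloperoxidase. Secondary granules follow at the myelocyte and metamyelocyte stage, and tertiary granules after them, so transcripts of their contents mark later maturation than those of primary granules. In mice, the transcription factor C/EBP epsilon is needed for normal expression of secondary granule genes.

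Gene counts per library were 42674407 and 42529111 in miR-99 KD and 38458519 and 41870314 in Scr. Scr 1 stood apart, with at least 1 count in 28573 genes, against 21372 to 24038 genes in the other 3 libraries. Olfactory receptor genes, a family of the nasal epithelium, summed to 4.78 and 14.95 CPM in miR-99 KD, against 51.9 CPM in Scr 1 and 5.52 CPM in Scr 2, where CPM is the count scaled to a common library total. Results of the members, and medians of the granule, neutrophil and regulator lists, are therefore also given without Scr 1. Of the sorting markers, Kit had 307 and 234 CPM in miR-99 KD and 424 and 437 CPM in Scr, and Cd34 had 356 and 336 CPM in miR-99 KD and 334 and 292 CPM in Scr. The gene of Sca-1, Ly6a, had 5 and 4 counts in miR-99 KD and 4 and 8 counts in Scr, near the 3 counts that a value of 0 allows, so this labelled marker was all but absent as RNA in both groups. The 9 marker genes listed for the sorted cells summed to 1818 and 1830 CPM in miR-99 KD and 2146 and 2294 CPM in Scr. Of the 8 tested, 3 were higher in both miR-99 KD libraries than in both Scr libraries and 3 were lower, against 2949 and 3952 of all 15591 genes tested. At an unadjusted edgeR p under 0.05, 0 of the 8 were higher and 3 lower, against 414 and 816 of all genes.

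All 10 granule genes had a higher mean level in miR-99 KD than in Scr, and none passed the test over all genes. The gap was widest for 3 proteins of secondary granules: a fitted fold of 30.7 for Ltf, 11.1 for Ngp and 10.1 for Camp. It was narrowest for Hp, at 1.35, and Pglyrp1, at 1.30. CPM values of single genes are scaled with TMM factors, which correct library totals for differences in composition.

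**Figure D1:**
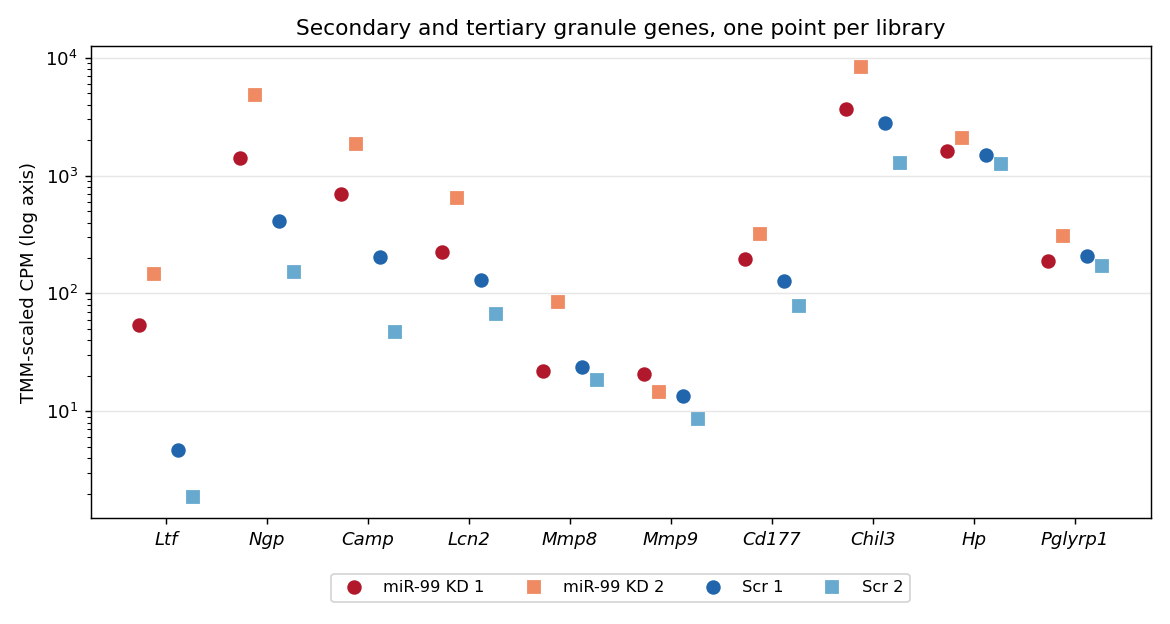
TMM-scaled CPM of the 10 granule genes on a log axis, with 1 point per library, miR-99 KD left of Scr for each gene. The 2 miR-99 KD libraries lie above both Scr libraries in 8 genes and overlap them for Mmp8 and Pglyrp1, and miR-99 KD 2 is the highest library for every gene but Mmp9.

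Ltf encodes lactoferrin, an iron-binding protein that starves microbes of iron. It had 2245 and 6146 counts in miR-99 KD, against 191 and 76 counts in Scr. These are 54.3 and 146 CPM in miR-99 KD and 4.64 and 1.87 CPM in Scr, with means of 99.97 ± 64.6 for miR-99 KD and 3.26 ± 1.96 for Scr (SD, n = 2 each). The groups lay far apart, since the lower miR-99 KD library was 11.7 times the higher Scr library, while libraries of 1 group differed by at most 2.68 times. The log2 fold change was 4.94 ± 0.77 (SE), with an edgeR adjusted p of 0.421. DESeq2 gave an adjusted p of 1.11e-10. Ltf was the single member whose distance between the groups exceeded the spread within each group on the log2 scale. Over all genes tested, 4.7% met that condition in this direction.

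Ngp encodes neutrophilic granule protein, a cystatin-related protein of mouse secondary granules. It had 1402 and 4859 CPM in miR-99 KD and 412 and 151 CPM in Scr. Both miR-99 KD libraries were above both Scr libraries, but the step between the nearest libraries of the 2 groups, 3.40 times, was close to the 3.47 times between the miR-99 KD libraries. The log2 fold change was 3.47 ± 0.85 (SE), with an edgeR adjusted p of 0.532 and a DESeq2 adjusted p of 4.39e-04.

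Camp encodes the cathelicidin precursor, from which the antimicrobial peptide CRAMP is cut in mice. It had 698 and 1849 CPM in miR-99 KD and 205 and 46.7 CPM in Scr. Here the Scr libraries differed from each other by 4.39 times, more than the 3.41 times between the nearest libraries of the groups. The log2 fold change was 3.34 ± 0.92 (SE), with an edgeR adjusted p of 0.580 and a DESeq2 adjusted p of 0.00275.

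Lcn2 encodes lipocalin 2, which binds the siderophores that bacteria use to collect iron. It had 225 and 648 CPM in miR-99 KD and 130 and 67.1 CPM in Scr, with no overlap between the groups. The log2 fold change was 2.15 ± 0.64 (SE), with an edgeR adjusted p of 0.585 and a DESeq2 adjusted p of 0.0379.

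Chil3 encodes the chitinase-like lectin Ym1, which mouse neutrophils and alternatively activated macrophages make. It was the most abundant member, with 3712 and 8291 CPM in miR-99 KD and 2791 and 1272 CPM in Scr. In miR-99 KD 2 it took more counts than any other gene, 0.823% of the library. It ranked 3 by counts in miR-99 KD 1, 5 in Scr 1 and 49 in Scr 2. The groups did not overlap, but the nearest libraries differed by 1.33 times and the libraries of 1 group by up to 2.23 times. The log2 fold change was 1.56 ± 0.57 (SE), with an edgeR adjusted p of 0.621 and a DESeq2 adjusted p of 0.245. The neighbouring paralog Chil4 had 54 and 99 counts in miR-99 KD and 46 and 13 counts in Scr. Alignments that were not unique are not among the gene counts, so reads that match both genes equally are missing and the level of Chil3 is uncertain.

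Cd177 encodes a glycolipid-anchored protein of the neutrophil surface and secondary granule membrane. It had 198 and 319 CPM in miR-99 KD and 128 and 78.1 CPM in Scr, again without overlap. The log2 fold change was 1.33 ± 0.37 (SE), with an edgeR adjusted p of 0.580 and a DESeq2 adjusted p of 0.117.

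The 2 metalloproteinase genes had the lowest mean CPM in miR-99 KD and did not share a pattern over the libraries. Mmp8, the neutrophil collagenase of secondary granules, had 21.9 and 85.4 CPM in miR-99 KD and 23.9 and 18.4 CPM in Scr. A single library, miR-99 KD 2, was high, and miR-99 KD 1 lay between the Scr libraries. Its log2 fold change of 1.34 ± 0.69 (SE, edgeR adjusted p 0.684) was 0.08 ± 0.26 without miR-99 KD 2. Mmp9, the gelatinase that names tertiary granules, had 20.5 and 14.5 CPM in miR-99 KD and 13.4 and 8.67 CPM in Scr. It was the only member in which miR-99 KD 1 exceeded miR-99 KD 2, and its log2 fold change was 0.66 ± 0.34 (SE, edgeR adjusted p 0.681).

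Hp and Pglyrp1 were abundant and differed least. Hp encodes haptoglobin, which binds free hemoglobin and is stored in secondary granules as well as secreted by the liver. It had 1620 and 2088 CPM in miR-99 KD and 1502 and 1254 CPM in Scr, a log2 fold change of 0.43 ± 0.20 (SE, edgeR adjusted p 0.667). Scaled to library totals without TMM factors, Hp in miR-99 KD 1 was below Hp in Scr 1, with 0.157% of counts in miR-99 KD 1 and 0.161% in Scr 1. Pglyrp1 encodes a peptidoglycan recognition protein that binds bacterial cell walls. It had 189 and 304 CPM in miR-99 KD and 207 and 171 CPM in Scr. The groups overlapped, with miR-99 KD 1 between the Scr libraries. Its log2 fold change was 0.38 ± 0.29 (SE, edgeR adjusted p 0.742), and 0.03 ± 0.18 without miR-99 KD 2.

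Read against the other genes tested, the granule genes stood at the high end of the fold changes. All 10 log2 fold changes were above 0 and their median was 1.45, while 49.0% of all genes tested lay above 0 and their median was −0.01. Ltf lay at the 99.9th percentile of all fold changes, Ngp and Camp each at the 99.8th, Lcn2 at the 99.4th, and Pglyrp1, the lowest of the 10, at the 84.4th. Both miR-99 KD libraries were above both Scr libraries in 8 of 10 members, against 18.9% of all genes. With library totals in place of TMM factors this held for 6 members, without Hp and Mmp9, against 12.7% of all genes.

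edgeR called 0 of 10 members, and 0% of all genes tested, higher at an adjusted p under 0.05. At an unadjusted p under 0.05 it had 6 members higher, namely Ltf, Ngp, Camp, Lcn2, Cd177 and Chil3, against 2.66% of all genes. No member was lower at that level. Over all 15591 genes, 414 were higher and 816 lower, which are the counts to set beside those of the lists below. limma-voom called 0 members. DESeq2 called 4 members higher, Ltf, Ngp, Camp and Lcn2, against 0.725% of all genes. 

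**Figure D2:**
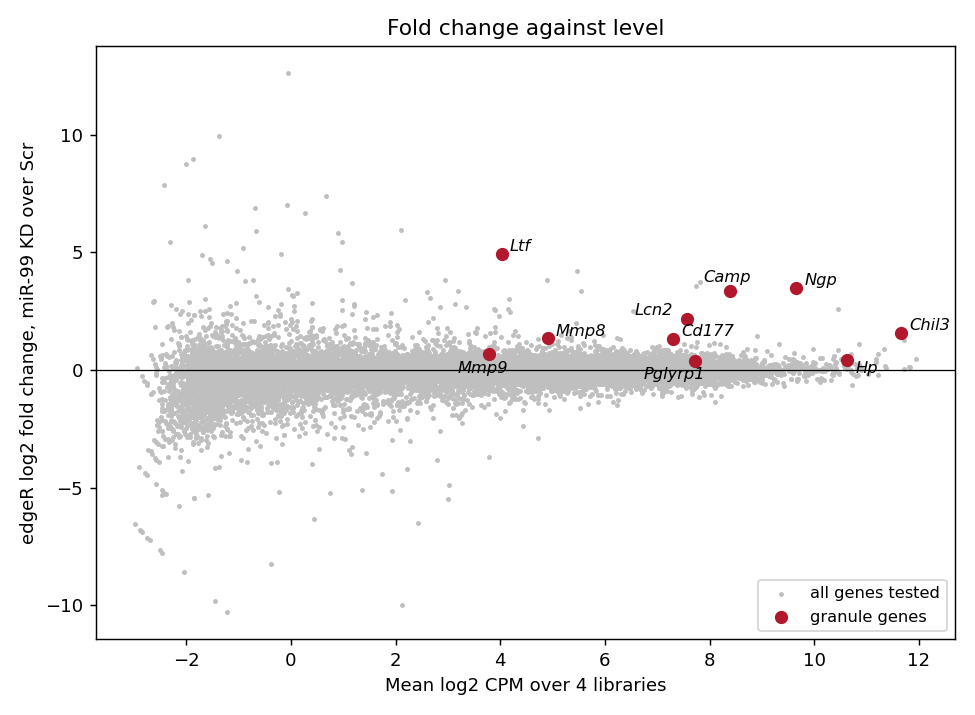
edgeR log2 fold change of miR-99 KD over Scr (y axis) against mean log2 CPM over the 4 libraries (x axis) for the 15591 genes tested (grey) and the 10 granule genes (red). All 10 lie above 0, from Pglyrp1 at 0.38 to Ltf at 4.94.

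The calls depended on the tool, as above, and in edgeR on Scr 1. Without Scr 1 edgeR also called genes of the other granule lists and of the neutrophil cytosol, so such calls were not particular to the members. With Scr 1 left out, and the spread of the lone Scr library taken to equal that of miR-99 KD, edgeR called 7 members higher, against 0.993% of genes in that fit. These were the 6 above and Mmp8, and their log2 fold changes ran from 1.64 (Mmp8) to 5.83 (Ltf), with edgeR adjusted p from 2.79e-20 (Camp) to 0.0280 (Mmp8). Hp, Mmp9 and Pglyrp1 were not called. With 1 Scr library this fit cannot measure the spread within Scr, so its calls are weak evidence. Its SE was smaller than with all 4 libraries for Ngp (0.46 against 0.85) and larger for Hp (0.37 against 0.20). DESeq2 without Scr 1 called 6 members, against 0.597% of genes. Without miR-99 KD 2, edgeR called 0 members, the median was 0.95, and DESeq2 called Ltf alone (adjusted p 5.06e-05), against 0.127% of genes. Without Scr 2 or without miR-99 KD 1, edgeR called 0 members, with medians of 1.19 and 2.08.

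**Figure D3:**
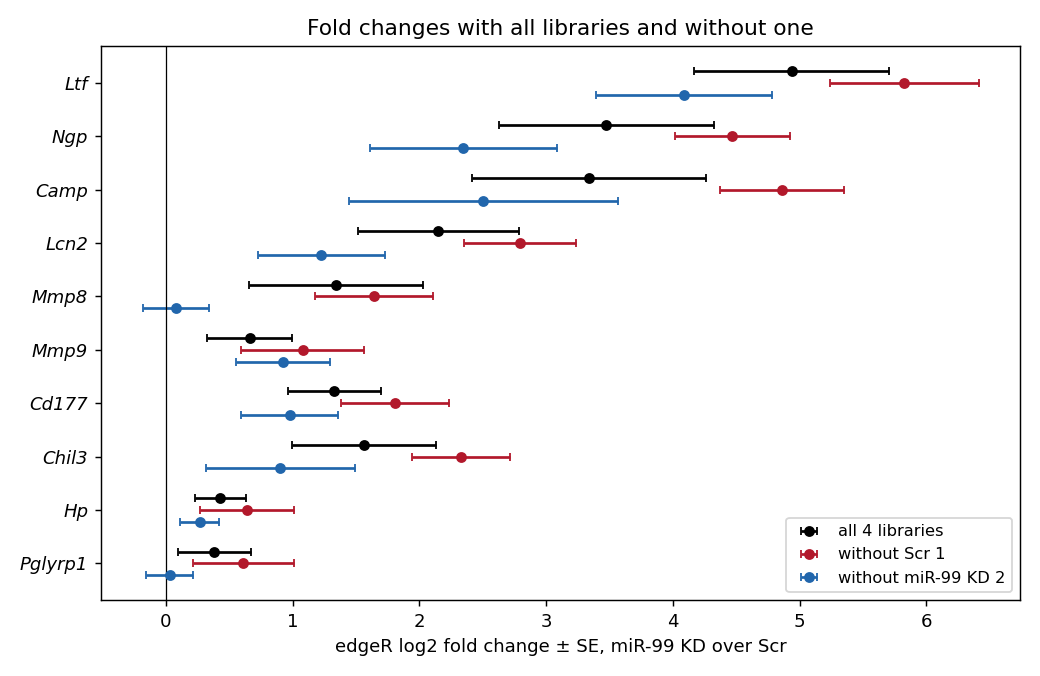
edgeR log2 fold change of miR-99 KD over Scr with its standard error (bars) for each granule gene, with all 4 libraries (black), without Scr 1 (red) and without miR-99 KD 2 (blue). Every point is above 0. Ngp is at 4.47 without Scr 1 and at 2.35 without miR-99 KD 2, while Mmp8 and Pglyrp1 approach 0 without miR-99 KD 2.

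The libraries kept nearly 1 order over the members. miR-99 KD 2 was highest in 9 of 10 genes and Scr 2 was lowest in all 10. Averaged over the members, centred log2 CPM of the miR-99 KD libraries was 0.44 (library 1) and 1.49 (library 2), against −0.50 and −1.42 for Scr 1 and Scr 2. The step between the nearest libraries of the groups was thus of about the same size as the steps within each group. The members together took 0.789% and 1.85% of counts in miR-99 KD and 0.579% and 0.297% in Scr. In these bulk samples, more cells at a later stage and more RNA per cell cannot be told apart.

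The make-up of the granule transcripts also differed between the groups. Ngp held 17.2% and 26.1% of the summed CPM of the 10 genes in miR-99 KD, against 7.61% and 4.92% in Scr. Camp held 8.57% and 9.94% in miR-99 KD, against 3.78% and 1.52% in Scr. Ltf held 0.667% and 0.783% in miR-99 KD and 0.0857% and 0.0610% in Scr. Hp went the other way, with 19.9% and 11.2% in miR-99 KD and 27.7% and 40.9% in Scr, and Chil3 held a similar share in both groups, 45.6% and 44.6% in miR-99 KD and 51.5% and 41.5% in Scr.

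**Figure D4:**
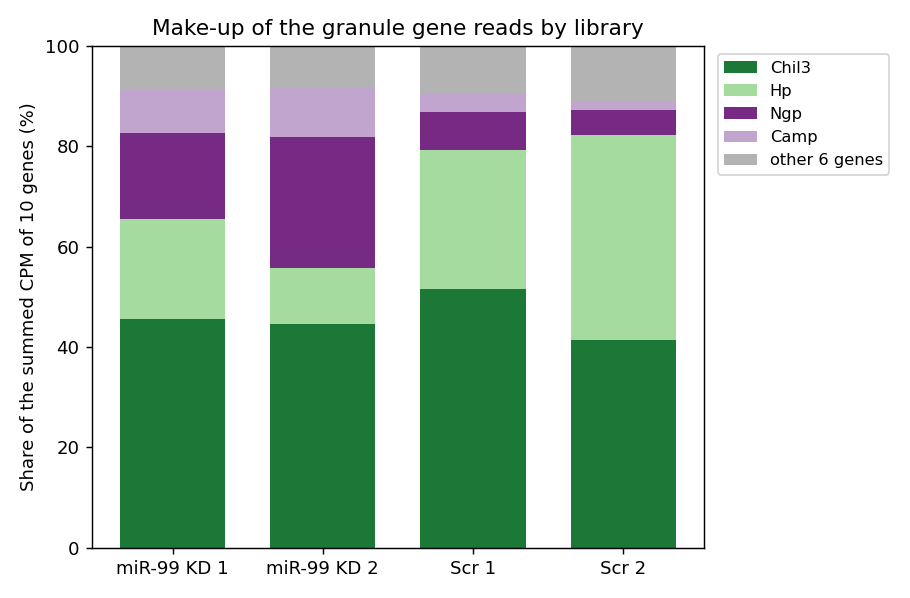
Share of the summed CPM of the 10 granule genes held by Chil3, Hp, Ngp, Camp and the other 6 genes (stacked bars, percent), for each library. Ngp and Camp hold larger shares and Hp a smaller share in both miR-99 KD libraries than in both Scr libraries.

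Per kilobase of annotated exon, Chil3 had the highest level in both groups, at a mean of 3677 CPM per kilobase in miR-99 KD and 1245 in Scr. In miR-99 KD it was followed by Ngp (2562), Camp (1680) and Hp (1154), and the library ranges of neighbours among these 4 genes overlapped. The range of Hp did not reach that of Lcn2, the next gene. Lcn2 (166), Pglyrp1 (134) and Cd177 (91.0) formed a lower group with overlapping neighbours, and Ltf (29.0), Mmp8 (22.1) and Mmp9 (4.95) came last. In Scr the order was Chil3, Hp (858), Ngp (230), Camp (166), Pglyrp1 (103), Lcn2 (37.5), Cd177 (36.2), Mmp8 (8.73), Mmp9 (3.12) and Ltf (0.944). Among these, Chil3 and Hp, Ngp and Camp, Camp and Pglyrp1, and Lcn2 and Cd177 overlapped. Ltf was lowest of the 10 in both Scr libraries, and above Mmp8 and Mmp9 in both miR-99 KD libraries.

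On GRCm38 (GENCODE M21), the 3 genes with the widest gaps lie on chromosome 9, with Camp at 109847379 to 109849617 on the minus strand, Ngp at 110419747 to 110423012 and Ltf at 111019271 to 111042767, both on the plus strand. Mmp8 lies at 7558456 to 7568485 of the same chromosome. Lcn2 (32384633 to 32388252) and Mmp9 (164940780 to 164955850) are on chromosome 2, Cd177 (24743983 to 24760311) and Pglyrp1 (18871331 to 18890459) on chromosome 7, Chil3 (106147554 to 106167564) on chromosome 3 and Hp (109575128 to 109579172) on chromosome 8. All 10 are protein-coding, and no exon of a member overlaps an exon of another annotated gene on either strand.

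Promoters from RefSeq (GRCm38.p6) were at hand for 8 members, Hp and Mmp9 being the others. The 250 bases before the start were searched on both strands for TTGCNNAA, a loose form of the C/EBP site. It was found in 4 of the 8, Ltf, Ngp, Lcn2 and Mmp8, and in 9.56% of 32851 promoters. Camp, Chil3, Cd177 and Pglyrp1 held no such letters in this window. The stretches around 3 of the matches are shown because their genes differ in fold change, from 4.94 for Ltf to 1.34 for Mmp8, with the match in capitals. The matches begin 75 (Ltf), 138 (Ngp) and 19 (Mmp8) bases before the start, in stretches at chr9:111019191-111019250, chr9:110419644-110419703 and chr9:7558384-7558428, all on the plus strand.
Ltf: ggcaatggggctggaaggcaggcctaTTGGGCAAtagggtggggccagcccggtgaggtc
Ngp: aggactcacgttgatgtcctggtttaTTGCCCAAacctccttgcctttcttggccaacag
Mmp8: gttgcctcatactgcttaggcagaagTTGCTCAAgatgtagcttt

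Ngp held a second match 11 bases before the RefSeq start, and that of Lcn2 began 216 bases before it. The stretches around both overlap an exon in GENCODE M21, and Lcn2 is among the 4 through that match alone. Of the other motifs, GAGGAA (PU.1) was in 5 of 8 promoters and 23.3% of all, AATC (the Gfi1 core) in 5 of 8 and 69.0% of all, and TGTGGT (Runx) in 0 of 8 and 14.0% of all. A match is a string of letters and not evidence of binding, and genes with and without a C/EBP match were among those with the largest differences.

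Transcripts of 2 factors known to act on granule genes overlapped between the groups. Cebpe, which encodes C/EBP epsilon, had 130 and 151 CPM in miR-99 KD and 175 and 103 CPM in Scr, with both miR-99 KD values between those of Scr (log2 fold change 0.01 ± 0.30 SE, edgeR adjusted p 0.992). Counts of Ngp per count of Cebpe were 10.8 and 32.2 in miR-99 KD and 2.35 and 1.46 in Scr. Gfi1, a repressor needed for granulocyte maturation, had 53.6 and 32.8 CPM in miR-99 KD and 11.8 and 51.3 CPM in Scr. Cebpe and Gfi1 were named after their values were seen.

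Of the 16 regulators listed, 15 were tested, 13 with a positive and 2 with a negative log2 fold change and a median of 0.31. Scr 1 decided that median, which was −0.03 without it. No regulator was called by edgeR, at an unadjusted p under 0.05 only Irf8 was higher and 0 were lower, and DESeq2 called 0. The most abundant was Myb, a factor of proliferating progenitors, with 972 and 958 CPM in miR-99 KD, against 577 and 977 CPM in Scr. Spi1, which encodes PU.1, had 417 and 454 CPM in miR-99 KD, against 340 and 467 CPM in Scr. Cux1 had 228 and 173 CPM in miR-99 KD, against 190 and 241 CPM in Scr, and these 3 genes overlapped between the groups. Irf8, a factor of monocyte fate, had 293 and 450 CPM in miR-99 KD, against 202 and 158 CPM in Scr, and was the single regulator with both miR-99 KD libraries above both Scr libraries.

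Other genes of secondary and tertiary granules were divided. Of 20 listed, 17 were tested, 10 with a positive and 7 with a negative log2 fold change. The median was 0.09, or 0.22 without Scr 1. edgeR called 0, though before adjustment 4 were higher and 1 was lower at p under 0.05, and DESeq2 called 1 higher, the ficolin gene Fcnb (160 and 351 CPM in miR-99 KD, against 72.2 and 18.4 CPM in Scr, adjusted p 0.0390). Among the 4 most abundant, Cybb, the catalytic subunit of the phagocyte oxidase in the granule membrane, had 519 and 1153 CPM in miR-99 KD and 392 and 223 CPM in Scr, and the lysozyme gene Lyz2 had 680 and 1260 CPM in miR-99 KD and 505 and 403 CPM in Scr. Slpi, a protease inhibitor, had 2552 and 2930 CPM in miR-99 KD and 2769 and 2376 CPM in Scr, and Cyba, the partner of Cybb, had 511 and 624 CPM in miR-99 KD and 682 and 539 CPM in Scr, both overlapping. Adam8, Cfp, Itgam, Slc11a1, Stom and Arg1 were lower in both miR-99 KD libraries than in both Scr libraries, Arg1 at under 1 CPM throughout. Of the 17 tested, 7 were thus higher without overlap and 6 lower, against 2949 and 3952 of all 15591 genes tested.

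Primary granule genes, which belong to the earlier stage, were also divided gene by gene, though their sum was higher in both miR-99 KD libraries. The list summed to 9411 and 15784 CPM in miR-99 KD and 6195 and 5340 CPM in Scr. All 10 were tested, 5 with a positive and 5 with a negative log2 fold change. Both miR-99 KD libraries were above both Scr libraries in 5 of the 10 and below them in 3, against 2949 and 3952 of all 15591 genes tested. The median was 0.34, or 0.43 without Scr 1. edgeR called 0, while 4 were higher and 1 was lower at p under 0.05 before adjustment, and DESeq2 called Mpo. Mpo had 2387 and 4752 CPM in miR-99 KD and 667 and 519 CPM in Scr, while the cathepsin G gene Ctsg overlapped, with 618 and 891 CPM in miR-99 KD and 693 and 919 CPM in Scr. The summed CPM of the 10 members over that of the 10 primary granule genes was 0.865 and 1.18 in miR-99 KD and 0.874 and 0.575 in Scr, so miR-99 KD 1 and Scr 1 were alike in this ratio. Ltf per count of Mpo was 0.0227 and 0.0307 in miR-99 KD and 0.00696 and 0.00361 in Scr, whereas Lcn2 per count of Mpo was 0.0941 and 0.136 in miR-99 KD and 0.194 and 0.129 in Scr.

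Genes of the neutrophil cytosol went with the granule genes in part. Of 10 listed and tested, 7 had a log2 fold change above 0. The median of the 10 was 0.47, or 1.15 without Scr 1 and 0.02 without miR-99 KD 2. edgeR called 0, though without adjustment 3 were higher and 1 was lower at p under 0.05, and DESeq2 called 3 higher: S100a8, S100a9 and Wfdc21. S100a8 had 452 and 1313 CPM in miR-99 KD and 119 and 29.3 CPM in Scr, and S100a9 had 471 and 1506 CPM in miR-99 KD and 117 and 30.4 CPM in Scr. Together they form calprotectin, which binds zinc and calcium. Anxa1 (660 and 1098 CPM in miR-99 KD, against 730 and 547 CPM in Scr) and S100a11 (209 and 286 CPM in miR-99 KD, against 240 and 173 CPM in Scr) overlapped between the groups.

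Surface and receptor genes of late neutrophils were low or mixed. Of 16 listed, 15 were tested, 9 with a positive and 6 with a negative log2 fold change. The median was 0.18, or 0.41 without Scr 1. edgeR called 0, while 3 were higher and 4 were lower at p under 0.05 before adjustment, and DESeq2 called 0. Before adjustment, 414 of all 15591 genes tested were higher and 816 lower, so both counts were above the background. Padi4 (184 and 143 CPM in miR-99 KD, against 223 and 199 CPM in Scr) and Itgal (124 and 83.1 CPM in miR-99 KD, against 166 and 180 CPM in Scr) were lower in miR-99 KD, and Csf3r overlapped (130 and 131 CPM in miR-99 KD, against 144 and 124 CPM in Scr).

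**Figure D5:**
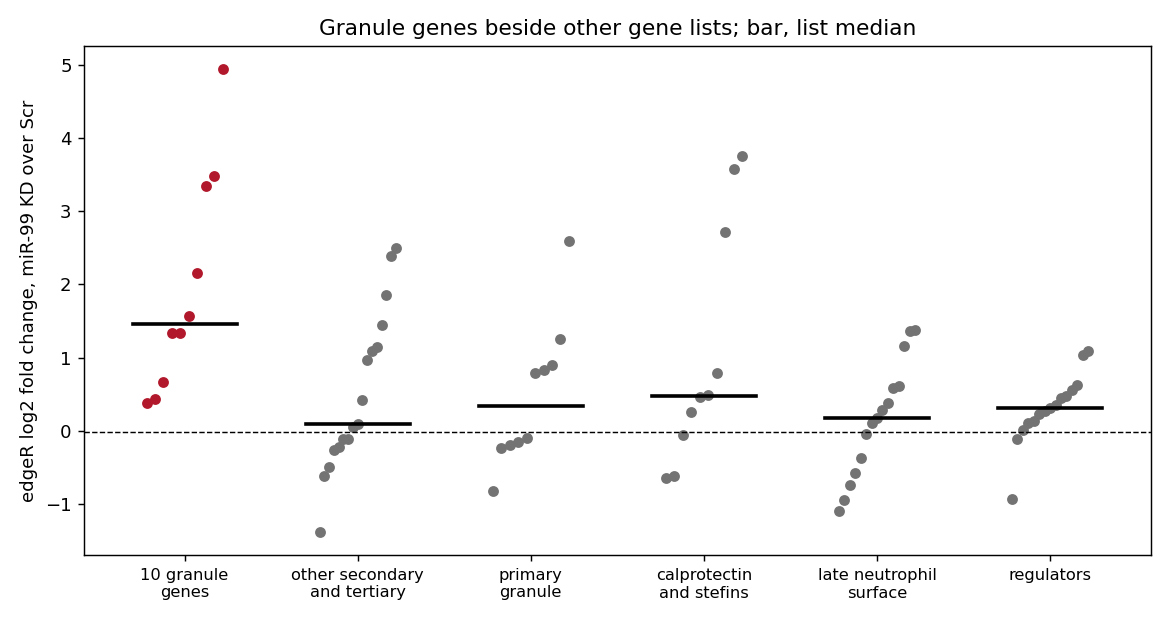
edgeR log2 fold change of miR-99 KD over Scr for each tested gene of the 10 granule genes (red) and of 5 other lists (grey), with the list median as a bar and the median of all genes tested, −0.01, as a dashed line. The granule genes have the highest list median, 1.45, and single calprotectin genes reach 3.75.

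Markers of mature neutrophils had low counts where they are most specific, and most were higher alongside the granule genes. Of 8 listed, none was at 0 in all libraries. Of the 7 tested, 6 had a log2 fold change above 0, with a median of 0.58 over the 7, or 1.32 without Scr 1. In 4 of them both miR-99 KD libraries were above both Scr libraries, and in 0 below, against 2949 and 3952 of all 15591 genes tested. edgeR called 0, while 2 were higher and 0 lower at p under 0.05 before adjustment, and DESeq2 called 0. Ly6g had 27 and 40 counts in miR-99 KD and 16 and 9 counts in Scr, Mmp25 had 14 and 35 counts in miR-99 KD and 4 and 9 counts in Scr, and Retnlg had 88 and 84 counts in miR-99 KD and 96 and 60 counts in Scr. The whole list summed to 922 and 966 CPM in miR-99 KD and 873 and 829 CPM in Scr, and Ly6g, Mmp25 and Retnlg added little to that sum. The part of mature neutrophils in the granule result was not tested.

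Monocyte markers were mostly higher alongside the granule genes. Of 8 listed and tested, 7 were higher in both miR-99 KD libraries than in both Scr libraries and Ccr2 was lower. Over all 15591 genes tested, 2949 were higher and 3952 lower in this way. None of the 8 markers was at 0. They summed to 2687 and 4141 CPM in miR-99 KD and 2086 and 2144 CPM in Scr, and DESeq2 called F13a1. Their part in the granule result was not tested. The share of counts from the mitochondrial genome was 0.853% and 1.16% in miR-99 KD, against 0.650% and 0.637% in Scr, and its part was not tested either.

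Macrophage markers were listed because some macrophages make Chil3. Of 8 listed, 7 were tested and all 7 had a negative log2 fold change. In 5 of the 7 both miR-99 KD libraries were below both Scr libraries, and in 0 above, against 3952 and 2949 of all 15591 genes tested. The markers summed to 141 and 108 CPM in miR-99 KD and 168 and 128 CPM in Scr, which overlapped. Their part in the Chil3 result was not tested. Markers of eosinophils (315 and 181 CPM in miR-99 KD, against 254 and 206 CPM in Scr), basophils and mast cells (171 and 87.7 CPM in miR-99 KD, against 80.7 and 149 CPM in Scr), erythroid cells (52.4 and 128 CPM in miR-99 KD, against 76.7 and 93.4 CPM in Scr), platelets (16.4 and 7.42 CPM in miR-99 KD, against 11.9 and 11.6 CPM in Scr) and B cells (65.8 and 89.8 CPM in miR-99 KD, against 72.9 and 63.2 CPM in Scr) had overlapping sums. T and NK cell markers, nearly all Nkg7, summed to 156 and 161 CPM in miR-99 KD and 155 and 117 CPM in Scr. Their defining genes Cd3e, Cd3d and Cd3g had 9 counts or fewer in each library.

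Outside the members, 8 genes with a mean of at least 10 CPM had the profile closest to the members' mean, by Euclidean distance of centred log2 CPM over the 4 libraries. They were Lrg1, Cybb, Sept5, Ifitm6, Gm11505, Gpr171, Gpr84 and Gpr183, at distances from 0.43 to 0.71. Lrg1, a leucine-rich glycoprotein that human neutrophils keep in granules, had 14.0 and 27.5 CPM in miR-99 KD and 8.78 and 5.30 CPM in Scr. Gm11505 is antisense to Mpo, and without a stated strand setting its reads cannot be told from those of Mpo. Over 4 libraries such a likeness is a description of their order and not of shared control.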

How the data were processed

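Per the labels' protocols, RNA of sorted cells was extracted with Trizol LS and amplified by SMARTer, a template-switching method for small inputs. The deposited values are raw counts per Ensembl gene, as their whole numbers show. Per the submitters' processing notes, the authors used STAR, Picard, HTSeq and DESeq2 with build mm9. The sources used here give no versions, strand setting or annotation release. The 5 categories that name no gene, 43.7% to 49.7% of entries, were left out. Alignments that were not unique (19.3% to 23.6%) are among them, which lowers genes with close copies.

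miR-99 KD was compared with Scr with the two-sided quasi-likelihood test of edgeR 4.0.16 in R 4.3.3, after TMM scaling and a low-count filter (minimum count 10). P-values were adjusted by Benjamini-Hochberg across 15591 genes, with 0.05 as threshold. The code was checked on simulated data. DESeq2 1.42.0 and limma-voom (limma 3.58.1) were alternatives. Standard errors are derived from the test statistic. With 2 libraries against 2, an exact permutation test cannot go below 0.333, so none was run. CPM of genes are TMM-scaled, with a prior count of 2 on the log2 scale for profiles, and shares of counts use library totals. Counts of amplified reads without molecular identifiers are not independent molecules.

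Identifiers were matched to symbols, and coordinates and exon lengths to GENCODE M21 (GRCm38), by identifier, and none were converted from mm9. The promoter search left out the 50 bases after the start. Exon lengths are the union over transcripts, so values per kilobase are approximate. The granule genes, the other lists, the motifs and the alternatives were chosen with earlier results of these data known. Named genes are the 10 members, Chil4, up to 4 genes of each list by abundance or a call, and the 8 most alike. Protein sequences were not used here, and the values of 1 listed gene are not reported here.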

Additional observations from a re-analysis of the deposited data

How the results depend on the processing

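All 10 members had a positive log2 fold change under each of 15 alternatives, 150 values in all, 3 of the alternatives being chosen after seeing the data. The alternatives refit the same 4 libraries, so these values are not independent of each other. The median of the members ran from 0.94 to 2.08. The number of calls did depend on the choices. From 0 in the fit reported, DESeq2 called 261 genes (113 higher, 148 lower, 4 members), upper-quartile factors 23 (10 higher, 13 lower, 0 members), library totals 9 (4 higher, 5 lower, 0 members) and no filter 9 (5 higher, 4 lower, 0 members). limma-voom, DESeq2 size factors in edgeR and a minimum count of 50 called 0. Leaving out 1 library gave from 0 to 294 genes (0 to 158 higher, 0 to 136 lower) and from 0 to 7 members in edgeR, all of the calls without Scr 1. Chosen after seeing the data, DESeq2 called 139 genes without Scr 1 (95 higher, 44 lower, 6 members) and 48 without miR-99 KD 2 (22 higher, 26 lower, 1 member). The cause of these differences was not tested.

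With the replicate number as a block edgeR called 0 genes and 0 members, with a median of 1.44 over the members. Libraries with the same number deviated from their group means with a correlation of −0.43 over genes. With 2 libraries per group the deviations mirror each other, so this is a single value. It cannot show whether the numbers pair the libraries. With the pairing crossed, chosen after seeing the data, edgeR called 28 genes (18 higher, 10 lower, 3 members).

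Library depth does not limit the members, the lowest of which had 76 counts in a library. The limits are 2 libraries per group, an Scr library that stood apart, no check of miR-99 itself, and a spread within at least 1 group that was not narrower than the step between the groups for 9 of 10 members.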

Other observations

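Of the 7 eosinophil markers listed, 3 genes of eosinophil granules had their own order over the libraries. The summed list did not separate the groups, with 315 and 181 CPM in miR-99 KD and 254 and 206 CPM in Scr. Of its 5 tested markers, 4 had a log2 fold change above 0 and 1 was below 0. Both miR-99 KD libraries were above both Scr libraries in 3 of the 5 and below them in 1. Prg2, which encodes the major basic protein, had 97.5 and 44.8 CPM in miR-99 KD and 36.6 and 17.8 CPM in Scr, and its relative Prg3 had 43.6 and 20.4 CPM in miR-99 KD and 19.4 and 9.93 CPM in Scr. The eosinophil peroxidase gene Epx had 198 and 2 counts in miR-99 KD and 20 and 7 counts in Scr. In all 3 genes miR-99 KD 1 was the highest library, whereas miR-99 KD 2 was the highest for 9 of the 10 neutrophil granule genes. None passed the edgeR test over all genes, with adjusted p of 0.639 (Prg2), 0.664 (Prg3) and 0.717 (Epx). Without Scr 1 edgeR called these genes, in a fit with 1 Scr library that cannot measure the spread within Scr. Epx was high in miR-99 KD 1 alone, since miR-99 KD 2 (2 counts) was below Scr 2 (7 counts).

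Several regulators were lowest in Scr 1, the library with the most detected genes. Cebpa had 23.8 and 13.1 CPM in miR-99 KD, against 3.67 CPM in Scr 1 and 20.3 CPM in Scr 2. Cebpd had 68.7 and 43.5 CPM in miR-99 KD, against 7.68 CPM in Scr 1 and 44.8 CPM in Scr 2. Cbfb had 215 and 161 CPM in miR-99 KD, against 59.1 CPM in Scr 1 and 211 CPM in Scr 2. The granule genes were not lowest in that library: for all 10 the lowest value was in Scr 2. These genes were named after their values were seen.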
